A study of Saccharomyces cerevisiae with 12 samples.

Results

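The 31 genes described here are the autophagy genes of the yeast Saccharomyces cerevisiae that the deposited expression table names ATG followed by a number, 31 of its 7126 genes. They were followed in 12 RNA-seq libraries of the CEN.PK strain background, in 6 genotypes of 2 libraries each. The single mutants were set2, cho2 and opi1, the double mutants were cho2set2 and opi1set2, and WT was the unmutated strain. Every group, WT included, had grown to log phase in the rich medium YPL, had been washed, and was collected 1 h after transfer to the minimal medium SL. SET2 encodes the methyltransferase of histone H3 lysine 36, CHO2 the first methyltransferase on the route that makes phosphatidylcholine out of phosphatidylethanolamine, and OPI1 a repressor of phospholipid synthesis genes. Whether a genotype's 2 libraries are separate cultures or separate clones is not stated in the labels, so a p-value covers only the variation among the samples at hand.

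Autophagy encloses cytoplasm or organelles in a double membrane, the autophagosome, and delivers them to the vacuole, where lipases and proteases break them down. In yeast it is held low in rich medium by the kinase TORC1 and is switched on by nutrient starvation, when the Atg1 kinase complex assembles, Atg9 vesicles bring membrane, a phosphatidylinositol kinase complex marks the site, and the ubiquitin-like proteins Atg8 and Atg12 are attached to their partners. Atg8 itself is joined to phosphatidylethanolamine, the lipid that Cho2 methylates. Transcript levels do not measure autophagic flux, which was not assayed in these data.

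Total counts per library ran from 7383001 to 9461609, with 6508 to 6570 genes detected, and the lowest count of any ATG gene in any library was 38. SET2 had 0 and 0 counts in set2 and 0 and 0 in opi1set2, against 153 and 181 in WT, and the CHO2 and OPI1 transcripts had at most 13 and 1 counts in the strains that lack those genes. Of the cho2set2 libraries, the one labelled replicate 1 held 50 SET2 counts and replicate 2 held 0, so calls in the cho2set2 comparisons are also given without replicate 1. All 31 ATG genes passed the filter of FPKM (fragments per kilobase of exon, scaled to the library total) of at least 1 in at least 2 libraries, which left 6583 genes. Of these, 6580 were counted, the 3 deleted genes being left out. A gene is called higher or lower where the quasi-likelihood test of edgeR gave a Benjamini-Hochberg adjusted p below 0.05 over all genes tested. Changes are log2 differences ± SE, and levels of single genes are CPM (counts scaled by library size, with TMM factors), given as replicate 1 and replicate 2. In bulk RNA, a smaller share of cells with a transcript and less transcript per cell cannot be told apart.

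Compared per length in WT, the ubiquitin-like protein gene ATG8 stood highest at 677 ± 108 FPKM (mean ± SD, n = 2), followed by ATG33 at 651 ± 32.9 FPKM, and the libraries of these 2 genes overlapped. ATG33 encodes a mitochondrial outer membrane protein needed for mitophagy in stationary phase. Next came the receptor genes ATG19 (357 ± 31 FPKM) and ATG34 (334 ± 50.7 FPKM), which also overlapped each other and were clear of the pairs above and below them. ATG2, the lipid transfer protein gene, was the lowest at 11.5 ± 1.24 FPKM, below ATG10 (19.4 ± 5.23 FPKM) and ATG16 (23.5 ± 1.03 FPKM), 2 genes of the conjugation system. The median of the 31 genes was 70.1 FPKM in WT, against 40.5 FPKM over all genes tested. ATG8 or ATG33 led in each of the 6 genotypes, while the lowest place was held by ATG16 in set2 (14.0 FPKM), cho2set2 (15.1 FPKM) and opi1set2 (14.4 FPKM), where in set2 it overlapped ATG10 and in opi1set2 ATG18, and by ATG2 in cho2 (11 FPKM), opi1 (10.3 FPKM) and WT. Summed over the 31 genes, FPKM was 2948 and 3226 in the set2 libraries, 3542 and 3269.5 in cho2set2, 3674 and 3695 in opi1set2, 4113 and 3908 in cho2, 4745 and 4641 in opi1, and 3767 and 4239.5 in WT. The opi1 libraries had the highest sums and the set2 libraries the lowest, on a scale without TMM.

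**Figure D1:**
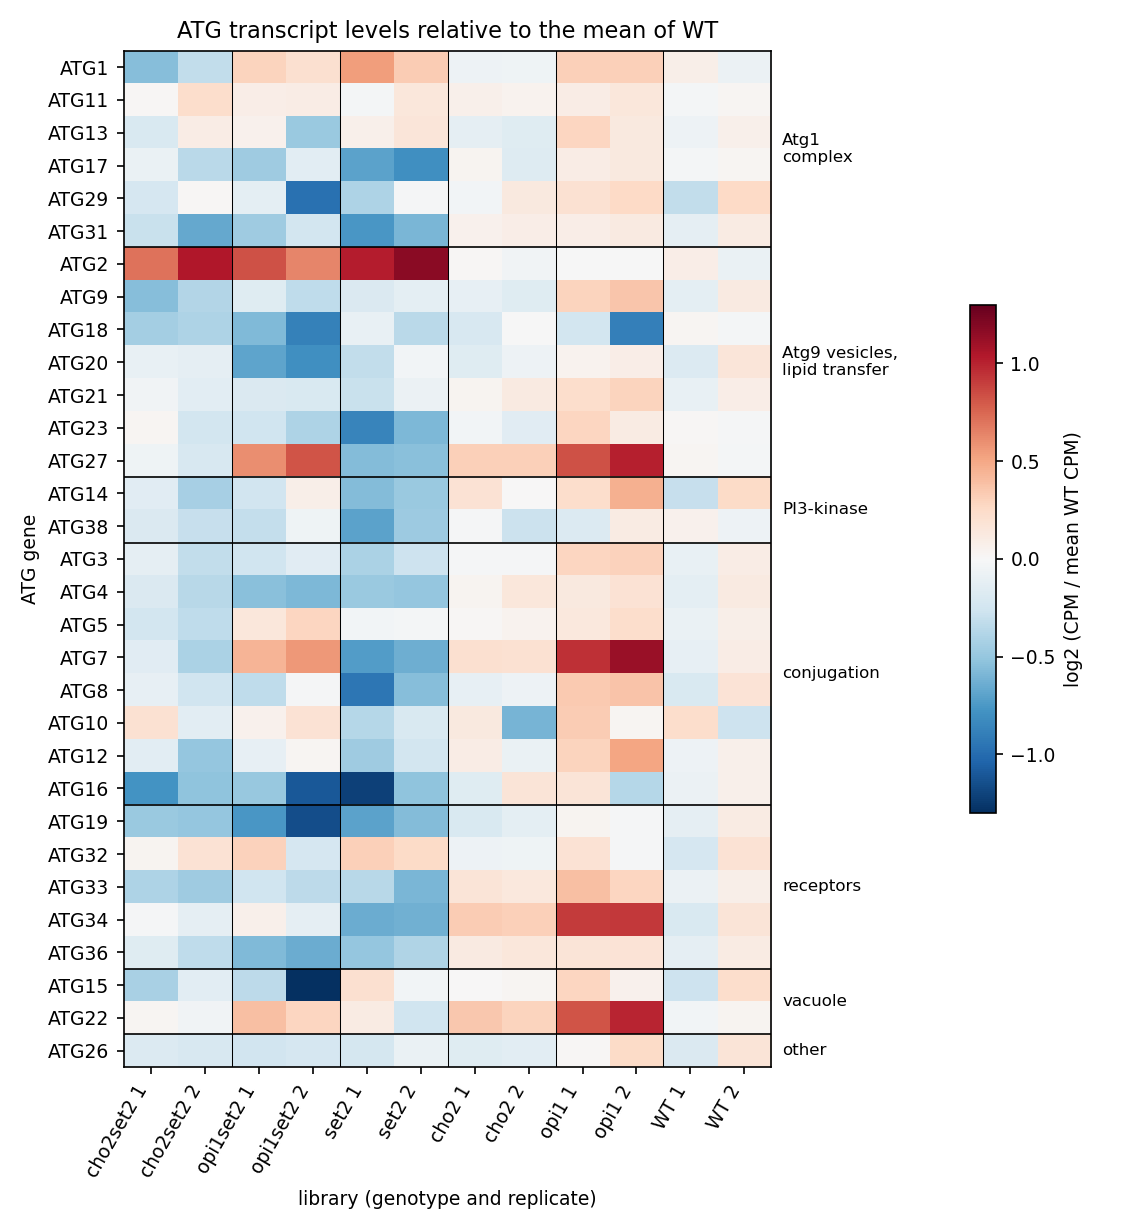
Heat map of the 31 ATG genes (rows, grouped by role) in the 12 libraries (columns, genotype and replicate). Colour is log2 of CPM over the mean CPM of WT; the ATG2 row is dark red in the 6 libraries without SET2, and ATG7, ATG22, ATG27 and ATG34 are red in both opi1 libraries.

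The sequences upstream of 4 genes that the results below describe are shown. ATG7 and ATG27 had the largest rises with OPI1 loss, ATG8 has the highest mean FPKM in WT, where its libraries overlap those of ATG33, and ATG2 is the ATG gene that rose with SET2 loss in all 3 backgrounds. Each stretch holds 250 bases, from 300 to 51 bases before the start codon, on the coding strand, read from the RefSeq R64 genome, in which all 31 genes have the start and end of the deposited table (build sacCer3). Capitals mark 5 short motifs searched on both strands: CATGTG, the core of the element read by the activators Ino2 and Ino4 that Opi1 restrains; TGACTC for Gcn4; GATAAG for Gln3 and Gat1; GGCGGC for Ume6; and AGGGG for Msn2 and Msn4, whose letters Rph1 and Gis1 also read.
ATG7, chrVIII:445413-445662, plus strand: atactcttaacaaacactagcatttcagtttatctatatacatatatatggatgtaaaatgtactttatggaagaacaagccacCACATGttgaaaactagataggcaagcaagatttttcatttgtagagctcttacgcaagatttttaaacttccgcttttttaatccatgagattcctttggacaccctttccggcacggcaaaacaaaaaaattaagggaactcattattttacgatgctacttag
ATG27, chrX:90148-90397, minus strand: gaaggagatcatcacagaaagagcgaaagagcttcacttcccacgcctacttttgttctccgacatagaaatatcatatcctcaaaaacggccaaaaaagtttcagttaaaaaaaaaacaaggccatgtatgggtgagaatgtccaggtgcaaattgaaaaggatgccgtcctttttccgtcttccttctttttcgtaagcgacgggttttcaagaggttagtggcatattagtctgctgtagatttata
ATG8, chrII:80782-81031, minus strand: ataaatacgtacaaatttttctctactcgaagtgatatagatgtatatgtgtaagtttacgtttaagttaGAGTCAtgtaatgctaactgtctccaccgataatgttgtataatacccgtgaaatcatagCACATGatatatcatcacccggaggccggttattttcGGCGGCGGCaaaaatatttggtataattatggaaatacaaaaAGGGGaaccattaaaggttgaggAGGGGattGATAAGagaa
ATG2, chrXIV:191024-191273, plus strand: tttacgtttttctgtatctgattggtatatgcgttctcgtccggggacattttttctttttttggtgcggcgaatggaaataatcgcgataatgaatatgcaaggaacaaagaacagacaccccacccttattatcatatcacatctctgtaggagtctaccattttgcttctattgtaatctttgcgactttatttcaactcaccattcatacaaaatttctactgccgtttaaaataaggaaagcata
In these stretches ATG7 holds 1 CATGTG on the reverse strand, ATG8 holds matches of all 5 motifs with 2 overlapping GGCGGC, and ATG27 and ATG2 hold none. Over the 500 bases before the start codon, CATGTG was found in 3 of 31 ATG genes (ATG7, ATG8 and ATG19; 9.68%), against 13.5% of 7066 genes. GGCGGC was found in 2 ATG genes, ATG8 and ATG19 (6.45%, against 9.14%), TGACTC in 7 (22.6%, against 12.7%), GATAAG in 12 (38.7%, against 22.8%) and AGGGG in 15 (48.4%, against 33%). A match describes letters and not a site in use.

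Setting set2 against WT addressed the effect of removing the histone methyltransferase alone. More ATG transcripts were lower than higher: 14 of 31 fell and 2 rose, where 15.9% of all genes fell and 18.5% rose (34.4% in either direction). The median log2 change of the 31 genes was -0.34, against -0.01 over all genes tested, and 25 of them lay below 0. The genes that fell came from most steps of the pathway, and the 2 that rose were ATG2 and ATG1. The call count was 10 when WT replicate 2 was left out and 10 when set2 replicate 1 was.

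ATG2 (YNL242W, chromosome XIV, 191324 to 196102), whose protein bridges the growing membrane and the endoplasmic reticulum and moves lipid between them, stood at 110.1 and 123 CPM in set2 against 57.6 and 51.3 CPM in WT. It stood at 89.1 and 112 CPM in cho2set2 against 55.1 and 52.9 CPM in cho2, and at 96.4 and 84.8 CPM in opi1set2 against 54.3 and 54.2 CPM in opi1. Every library without SET2 lay above every library with it. The log2 change was 1.10 ± 0.14 in set2 against WT (adjusted p = 4.01e-05), 0.90 ± 0.14 in cho2set2 against cho2 (adjusted p = 0.000371; 1.06 ± 0.15 without cho2set2 replicate 1) and 0.74 ± 0.14 in opi1set2 against opi1 (adjusted p = 0.000615). ATG2 was the 1 ATG gene called higher in all 3 backgrounds (3.23% of the 31), against 8.43% of all genes. Those 3 comparisons share no library.

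The Atg1 kinase complex and its scaffolds, 6 genes that start autophagosome formation, split in set2. ATG1 (YGL180W, chromosome VII), the kinase, stood at 143 and 123 CPM in set2 against 103 and 92.6 CPM in WT, with the groups apart (0.44 ± 0.13, adjusted p = 0.0134). That call was lost without WT replicate 2 and without set2 replicate 1, with a highest adjusted p of 0.142. ATG17 (-0.75 ± 0.15, adjusted p = 0.00154), the scaffold of the starvation complex, and its partner ATG31 (-0.67 ± 0.15, adjusted p = 0.00341) fell. ATG13, the regulatory subunit that TORC1 phosphorylates, was at 0.11 ± 0.16, ATG11, the scaffold for selective autophagy, at 0.06 ± 0.12, and ATG29 at -0.20 ± 0.25, none of them called. ATG29 overlaps SET6 on the opposite strand, and the sources used here do not say whether counting used strand. How reads in the overlap were counted is therefore not known, and the values of ATG29 are uncertain.

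Of 8 conjugation genes, 4 fell in set2 and 0 rose, beside the 15.9% lower and 18.5% higher over all genes. ATG8 (YBL078C, chromosome II, 80378 to 80731) stood at 124 and 162 CPM in set2 against 207 and 269.5 CPM in WT, and the groups did not overlap (-0.73 ± 0.16, adjusted p = 0.00308). Without set2 replicate 1 its adjusted p was 0.0595. ATG7 (YHR171W, chromosome VIII, 445713 to 447605), the activating enzyme for both Atg8 and Atg12, stood at 110.0 and 117 CPM in set2 against 169 and 196 CPM in WT (-0.68 ± 0.13, adjusted p = 0.00137). ATG4, the protease that trims Atg8 and releases it from lipid, stood at 74.5 and 73.9 CPM in set2 against 95.3 and 113 CPM in WT (-0.49 ± 0.12, adjusted p = 0.00666), a call lost without WT replicate 2 (adjusted p = 0.089). ATG3, which transfers Atg8 to phosphatidylethanolamine, fell by less (-0.34 ± 0.12, adjusted p = 0.0449), a call lost in 5 of its 10 alternatives. ATG16 had the lowest value of all 31 (-0.83 ± 0.32, adjusted p = 0.0553), was not called, and overlaps YMR158W-B on the opposite strand. ATG5 (-0.03 ± 0.12), ATG10 (-0.28 ± 0.29) and ATG12 (-0.35 ± 0.17) were not called.

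Among the 5 receptor and selective autophagy genes, 4 fell in set2, where 15.9% of all genes did. ATG19 (YOL082W, chromosome XV, 168727 to 169974), the receptor of the cytoplasm-to-vacuole pathway, stood at 273 and 299.6 CPM in set2 against 408 and 478 CPM in WT (-0.63 ± 0.14, adjusted p = 0.00343). Its paralog and neighbour ATG34 (YOL083W, chromosome XV, 165714 to 166952), a receptor for alpha-mannosidase under starvation, stood at 263 and 267 CPM in set2 against 361 and 464 CPM in WT (-0.64 ± 0.14, adjusted p = 0.00237). The 2 genes lie 1774 bases apart on 1 strand. How reads shared by the paralogs were counted is not stated in the sources used here, so the values of both are uncertain on that point. ATG34 also overlaps YOL083C-A on the opposite strand, which adds uncertainty to its own values. ATG33 stood at 299.6 and 255 CPM in set2 against 364 and 405 CPM in WT (-0.47 ± 0.13, adjusted p = 0.00938), and ATG36, the receptor for peroxisomes, at 118 and 127 CPM in set2 against 153 and 179 CPM in WT (-0.44 ± 0.12, adjusted p = 0.0116). In each of these 4 genes both set2 libraries lay below both WT libraries. As the genes were called on those same libraries, this is a description only. The call of ATG33 was lost without WT replicate 2 and without set2 replicate 2, and that of ATG36 without WT replicate 2 and without set2 replicate 1. ATG32, the mitophagy receptor, was at 0.28 ± 0.17 and not called (adjusted p = 0.216).

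Of the 7 genes for Atg9 vesicles, lipid transfer and binding of phosphatidylinositol phosphate, ATG23 and ATG27 fell beside the rise of ATG2. ATG23 and ATG27 encode proteins that carry Atg9 to its vesicles. ATG23 stood at 59.2 and 71.6 CPM in set2 against 108 and 107 CPM in WT (-0.72 ± 0.14, adjusted p = 0.00104), and ATG27 at 93.9 and 95.2 CPM in set2 against 141 and 137 CPM in WT (-0.56 ± 0.13, adjusted p = 0.00339). ATG9, the transmembrane lipid scramblase, was at -0.16 ± 0.13 and not called. ATG14 (-0.52 ± 0.19, adjusted p = 0.0447) and ATG38 (-0.58 ± 0.15, adjusted p = 0.00762), the autophagy-specific subunits of the phosphatidylinositol kinase complex, both fell, and the call of ATG14 was lost in 5 of its 10 alternatives and that of ATG38 without set2 replicate 1 (adjusted p = 0.0938). The vacuolar lipase gene ATG15 (0.09 ± 0.24) and the amino acid exporter gene ATG22 (-0.07 ± 0.13) were not called.

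**Figure D2:**
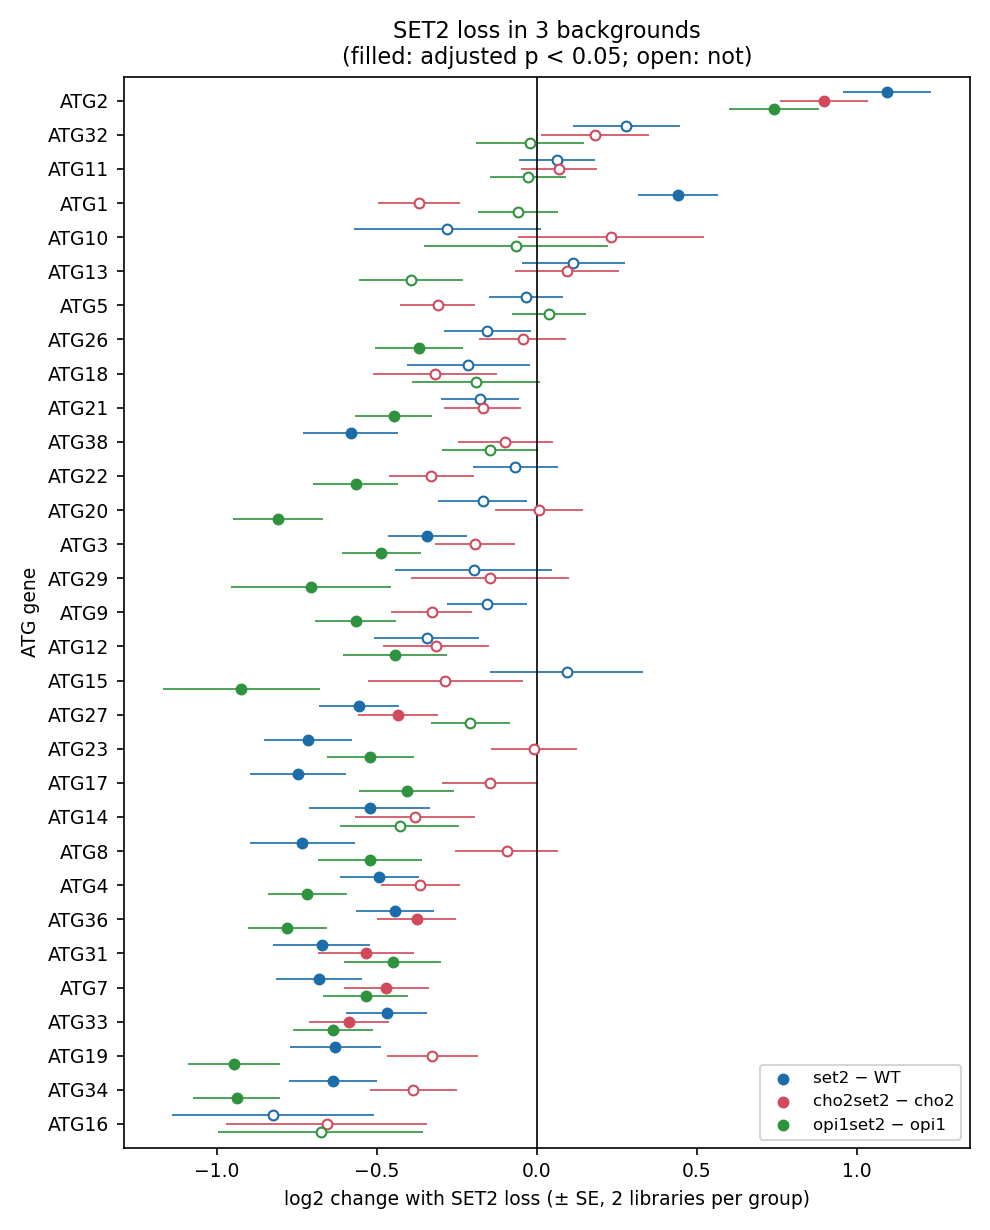
Log2 change with SET2 loss (horizontal axis, ± SE, 2 libraries per group) of each ATG gene (vertical axis) for set2 minus WT, cho2set2 minus cho2 and opi1set2 minus opi1; filled points have adjusted p below 0.05. ATG2 lies right of 0 in all 3 comparisons, and 22 of 31 genes lie left of 0 in all 3.

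The comparison of opi1set2 with opi1 asked the same of cells without OPI1. In opi1set2, 19 of 31 fell and 1 rose, where 20.8% of all genes fell and 23.5% rose (44.3% in either direction). The median of the 31 was -0.45, against 0.01 over all genes, and 29 lay below 0. The call count was 13 without opi1 replicate 1 and 12 without opi1 replicate 2. On FPKM without TMM the median of all genes was 0.19 and that of the 31 was -0.25, and 7 fell and 1 rose by limma.

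ATG19 and ATG34 had the lowest values in this comparison. ATG34 stood at 431 and 379 CPM in opi1set2 against 775 and 779 CPM in opi1 (-0.94 ± 0.14, adjusted p = 7.53e-05). ATG19 stood at 263 and 199.8 CPM in opi1set2 against 454 and 439 CPM in opi1 (-0.95 ± 0.14, adjusted p = 0.000107). Both calls held under all 10 alternatives, and the gap between the groups is a description only, for genes called on those same libraries. ATG36 stood at 111 and 106 CPM in opi1set2 against 186 and 188 CPM in opi1 (-0.78 ± 0.12, adjusted p = 0.000156), and ATG33 at 321 and 304 CPM in opi1set2 against 505 and 467 CPM in opi1 (-0.64 ± 0.13, adjusted p = 0.000877). So 4 of the 5 receptor and selective autophagy genes fell, beside 20.8% of all genes, and ATG32 (-0.02 ± 0.17) was not called.

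ATG20, which encodes a sorting nexin of the Snx4 complex that retrieves membrane proteins and is needed for selective autophagy, stood at 105 and 97.5 CPM in opi1set2 against 175 and 180.1 CPM in opi1 (-0.81 ± 0.14, adjusted p = 0.000332). In set2 against WT, where it stood at 136 and 166 CPM in set2 and 149 and 189.5 CPM in WT, the groups overlapped and it was not called (-0.17 ± 0.14). The difference between these 2 changes was -0.64 ± 0.20 and did not pass the test of the interaction. ATG9 (-0.57 ± 0.13, adjusted p = 0.0022), ATG21 (-0.45 ± 0.12, adjusted p = 0.00783), a binder of phosphatidylinositol phosphate, and ATG23 (89.9 and 81.5 CPM in opi1set2 against 130.1 and 116 CPM in opi1; -0.52 ± 0.14, adjusted p = 0.00594) fell as well. ATG27 had 211 and 245 CPM in opi1set2 against 247 and 279.6 CPM in opi1, with little space between the groups, and was not called (-0.21 ± 0.12).

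Of the 8 conjugation genes, 5 fell in opi1set2, where 20.8% of all genes did. ATG4 stood at 71.8 and 69.8 CPM in opi1set2 against 114 and 119 CPM in opi1 (-0.72 ± 0.12, adjusted p = 0.000332), ATG7 at 247 and 269.9 CPM in opi1set2 against 352 and 398 CPM in opi1 (-0.54 ± 0.13, adjusted p = 0.00437), and ATG8 at 189 and 236 CPM in opi1set2 against 303 and 308 CPM in opi1 (-0.52 ± 0.16, adjusted p = 0.0169). In all 3 genes the opi1set2 libraries lay below the opi1 libraries, a description of genes called on those same libraries. ATG3 (-0.49 ± 0.12) and ATG12 (-0.44 ± 0.16), the second ubiquitin-like protein, fell too. Over 10 alternatives the call of ATG12 was lost in 5 (highest adjusted p 0.286), that of ATG8 in 4 (0.179) and that of ATG7 in 2 (0.0751). Both vacuolar genes fell: ATG22 stood at 118 and 109.8 CPM in opi1set2 against 159 and 179 CPM in opi1 (-0.57 ± 0.13, adjusted p = 0.00304), and ATG15 was at -0.92 ± 0.25 (adjusted p = 0.00687). ATG15 had 84.7 CPM in opi1set2 replicate 1 and 42.2 CPM in opi1set2 replicate 2, and its call was lost in 3 of 10 alternatives, the fit without opi1set2 replicate 2 among them. ATG17 (-0.41 ± 0.15), ATG29 (-0.71 ± 0.25) and ATG31 (-0.45 ± 0.15) of the Atg1 complex and ATG26 (-0.37 ± 0.14), a sterol glucosyltransferase gene, completed the 19. Each of these 4 lost its call in 4 of 10 alternatives, with highest adjusted p of 0.296 for ATG17, 0.267 for ATG29, 0.227 for ATG31 and 0.362 for ATG26. ATG1 stood at 119 and 113 CPM in opi1set2 against 121 and 121 CPM in opi1 (-0.06 ± 0.13), and with ATG13 (-0.39 ± 0.16) and ATG14 (-0.43 ± 0.19) it was not called.

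The comparison of cho2set2 with cho2 put the question to cells without CHO2. In cho2set2, 5 of 31 fell and 1 rose, where 5.58% of all genes fell and 11.3% rose (16.9% in either direction), with a median of -0.31 against 0.00 over all genes. The genes that fell were ATG33 (291 and 279 CPM in cho2set2 against 433 and 423 CPM in cho2; -0.59 ± 0.13, adjusted p = 0.00434), ATG31 (-0.53 ± 0.15, adjusted p = 0.0245), ATG7 (165 and 137 CPM in cho2set2 against 210.0 and 209 CPM in cho2; -0.47 ± 0.13, adjusted p = 0.0254), ATG27 (134 and 120.3 CPM in cho2set2 against 172 and 172 CPM in cho2; -0.43 ± 0.12, adjusted p = 0.0259) and ATG36 (149 and 132 CPM in cho2set2 against 179 and 185 CPM in cho2; -0.38 ± 0.12, adjusted p = 0.0477). In each of the 5 the groups did not overlap, a description of genes called on those same libraries and not further support. With cho2set2 replicate 1 left out, ATG31 was at -0.74 ± 0.17, ATG7 at -0.61 ± 0.16, ATG27 at -0.51 ± 0.15 and ATG33 at -0.62 ± 0.16, all still called, while ATG36 (-0.47 ± 0.15, adjusted p = 0.0521) was not. Leaving out either cho2 library left 2 calls, and leaving out cho2set2 replicate 2 left 1. ATG8 stood at 221 and 199.6 CPM in cho2set2 against 221 and 228 CPM in cho2 and was not called (-0.09 ± 0.16, and -0.17 ± 0.20 without cho2set2 replicate 1). The calls of ATG31, ATG7 and ATG27 were each lost in 4 of 9 alternatives, that of ATG36 in 6 and that of ATG33 in 1. Among genes that fell in opi1set2, ATG4 stood at 91.6 and 81.1 CPM in cho2set2 against 107 and 116 CPM in cho2 (-0.37 ± 0.12, adjusted p = 0.0565), ATG19 at 318 and 313 CPM in cho2set2 against 385 and 406 CPM in cho2 (-0.33 ± 0.14), and ATG22 at 91.7 and 87.5 CPM in cho2set2 against 115 and 110.0 CPM in cho2 (-0.33 ± 0.13). These 3 were not called in cho2set2 against cho2. ATG20 stood at 158 and 156 CPM in cho2set2 against 152 and 162 CPM in cho2 (0.01 ± 0.14), and ATG23 at 109 and 91.1 CPM in cho2set2 against 105 and 96.9 CPM in cho2 (-0.01 ± 0.13), with overlapping groups.

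Over the 3 comparisons with no shared library, ATG7, ATG31, ATG33 and ATG36 were called lower in each (4 of 31, 12.9%), against 3.24% of all genes. Leaving out 1 library gave a count of 6 for WT replicate 1, 3 for WT replicate 2, set2 replicate 1 or cho2set2 replicate 1, 2 for set2 replicate 2 or opi1 replicate 1, 1 for opi1 replicate 2 or either cho2 library, and 0 for cho2set2 replicate 2. In both set2 against WT and opi1set2 against opi1, 11 ATG genes were called lower (35.5%), against 9.01% of all genes; they were ATG3, ATG4, ATG7, ATG8, ATG17, ATG19, ATG23, ATG31, ATG33, ATG34 and ATG36. These 11 make 78.6% of the 14 lower in set2 and 57.9% of the 19 lower in opi1set2. At least 1 SET2 comparison called 22 ATG genes lower (71%, against 28.4% of all genes), and 22 had a log2 change below 0 in all 3 (71%, against 29.8%).

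Over all genes, those of 2500 bases or more had the highest median of 5 length classes in each SET2 comparison. ATG2 is the longest of the 31 genes at 4779 exonic bases, and in set2 against WT the median of all genes was -0.20 for those under 600 bases and 0.39 for the 789 genes of 2500 bases or more. The 5 ATG genes of 2500 bases or more, ATG1, ATG2, ATG9, ATG11 and ATG26, had a median of 0.06 in that comparison. Of them 2 were higher and 0 lower, beside 48% and 1.65% of all genes of that length. In cho2set2 against cho2 37.6% of all genes of that length were higher, and in opi1set2 against opi1 42% were. The medians of all genes under 600 bases and of 2500 or more were -0.04 and 0.30 in cho2set2 against cho2. In opi1set2 against opi1 they were 0 and 0.26. In the 5 length classes, chosen after the values were seen, the ATG median lay below the median of all genes of the class in each of the 3 SET2 comparisons. For genes of at least 1000 and under 1500 bases, 7 of them ATG genes, it was -0.63 against -0.07 in set2 against WT, -0.33 against -0.05 in cho2set2 against cho2, and -0.52 against -0.07 in opi1set2 against opi1. The part of length in the changes of single ATG genes was not tested.

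**Figure D3:**
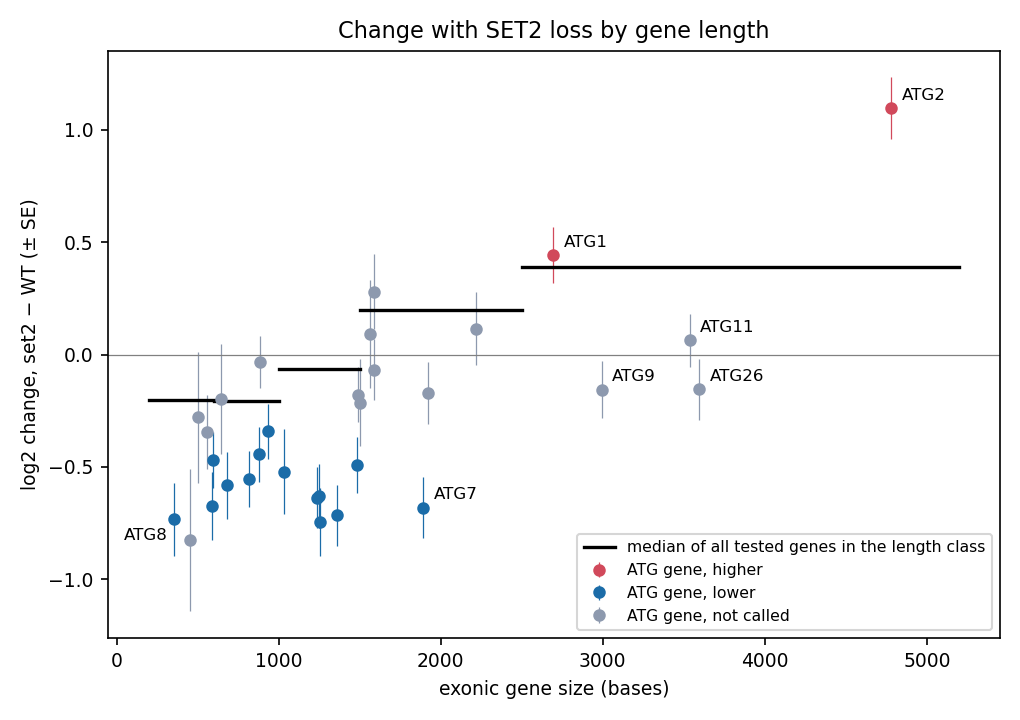
Log2 change of each ATG gene in set2 minus WT (vertical axis, ± SE) by its exonic size in bases (horizontal axis); black bars are the medians of all tested genes in 5 length classes. ATG2, at 4779 bases and a change of 1.10, lies above its class median of 0.39, and ATG9, ATG11 and ATG26 lie below it.

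Setting opi1 against WT addressed the effect of removing the repressor of phospholipid genes. In opi1, 4 of 31 ATG genes rose and 0 fell, where 8.94% of all genes rose and 8.77% fell (17.7% in either direction). The median of the 31 was 0.19, against -0.01 over all genes, and 27 lay above 0. On FPKM without TMM those medians were 0.05 and -0.14. The 4 genes belong to different steps: ATG7 to conjugation, ATG27 to Atg9 vesicles, ATG34 to cargo receptors and ATG22 to vacuolar export.

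ATG7 stood at 352 and 398 CPM in opi1 against 169 and 196 CPM in WT (1.04 ± 0.13, adjusted p = 9.5e-05). ATG27 (YJL178C, chromosome X, 89282 to 90097) stood at 247 and 279.6 CPM in opi1 against 141 and 137 CPM in WT (0.92 ± 0.12, adjusted p = 0.000133). ATG34 stood at 775 and 779 CPM in opi1 against 361 and 464 CPM in WT (0.91 ± 0.14, adjusted p = 0.000296). ATG22 (YCL038C, chromosome III, 54941 to 56527) stood at 159 and 179 CPM in opi1 against 88.1 and 92.3 CPM in WT (0.90 ± 0.13, adjusted p = 0.000276). The 4 calls held under all 10 alternatives. In each gene both opi1 libraries lay clear above both WT libraries, a description of genes called on those libraries. Of the 4, ATG7 holds a CATGTG within 500 bases of its start codon, as printed above, and ATG22, ATG27 and ATG34 hold no such letters there. ATG8 and ATG19, the other holders of CATGTG, were not called: ATG8 stood at 303 and 308 CPM in opi1 against 207 and 269.5 CPM in WT (0.36 ± 0.16, adjusted p = 0.15), and ATG19 at 454 and 439 CPM in opi1 against 408 and 478 CPM in WT (0.01 ± 0.14), with overlapping groups.

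Without SET2, OPI1 loss was read from opi1set2 against set2, which shares no library with opi1 against WT. Here 7 of 31 rose and 2 fell, where 13.5% of all genes rose and 12.3% fell (25.8% in either direction), with a median of 0.07 against -0.02 over all genes. ATG27 stood at 211 and 245 CPM in opi1set2 against 93.9 and 95.2 CPM in set2 (1.27 ± 0.13, adjusted p = 8.36e-06). ATG7 stood at 247 and 269.9 CPM in opi1set2 against 110.0 and 117 CPM in set2 (1.18 ± 0.14, adjusted p = 3.51e-05). ATG34 stood at 431 and 379 CPM in opi1set2 against 263 and 267 CPM in set2 (0.61 ± 0.14, adjusted p = 0.00481). All 3 pairs of groups were apart, as a description of genes called on those libraries, and the calls held under all 10 alternatives. ATG22 stood at 118 and 109.8 CPM in opi1set2 against 96.9 and 75.3 CPM in set2 (0.40 ± 0.13, adjusted p = 0.0379), a call lost in 4 of 10 alternatives. The other risers were ATG8 (189 and 236 CPM in opi1set2 against 124 and 162 CPM in set2; 0.57 ± 0.16, adjusted p = 0.0193), ATG17 (0.45 ± 0.15, adjusted p = 0.04) and ATG23 (89.9 and 81.5 CPM in opi1set2 against 59.2 and 71.6 CPM in set2; 0.39 ± 0.14, adjusted p = 0.0486). The calls of ATG17 and ATG23 were each lost in 5 of 10 alternatives, the replicate block included (highest adjusted p 0.32 and 0.324), and that of ATG8 in 3.

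The 2 genes lower in opi1set2 than in set2 were ATG20 (105 and 97.5 CPM in opi1set2 against 136 and 166 CPM in set2; -0.57 ± 0.14, adjusted p = 0.00829) and ATG15 (-0.85 ± 0.25, adjusted p = 0.0197), whose calls were lost in 2 and 3 of 10 alternatives. The call count depended on the library left out, and without opi1set2 replicate 1 more ATG genes were called lower than higher. The median of the 31 was -0.05 and 0.11 without set2 replicates 1 and 2, and 0.04 and 0.08 without opi1set2 replicates 1 and 2. ATG7, ATG22, ATG27 and ATG34 were thus called higher with OPI1 loss in both comparisons (12.9% of the 31), against 4.51% of all genes. They are all 4 genes called in opi1 against WT and 57.1% of the 7 called higher in opi1set2 against set2.

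**Figure D4:**
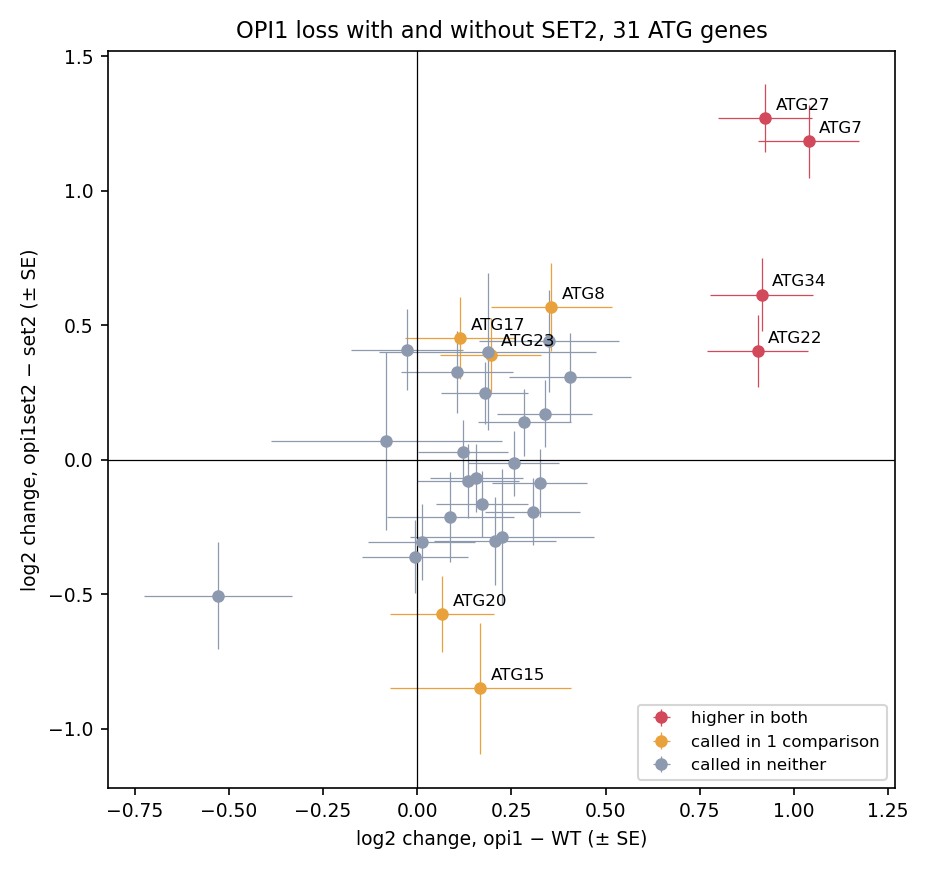
Log2 change of each of the 31 ATG genes in opi1 minus WT (horizontal axis) and in opi1set2 minus set2 (vertical axis), each ± SE with 2 libraries per group. ATG7 and ATG27 lie at the upper right, at 1.04 and 1.18 and at 0.92 and 1.27; ATG15 and ATG20 lie lowest.

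For the interaction of OPI1 and SET2 loss, the change with SET2 loss in opi1 cells minus that in OPI1 cells, 0 of 31 ATG genes were called by edgeR, where 2.84% of all genes were higher and 2.63% lower (5.47% in either direction). At an unadjusted p below 0.05 there were 6, ATG1, ATG9, ATG13, ATG15, ATG20 and ATG22, against 24.5% of all genes. DESeq2 called 2 and limma 0, and edgeR called 2 without WT replicate 2 and 4 without opi1set2 replicate 1.

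Setting cho2 against WT addressed the effect of removing the lipid methyltransferase. In cho2, 0 of 31 were called by edgeR, where 0.243% of all genes were higher and 1.47% lower (1.72% in either direction). The range was -0.18 to 0.32, and the median was 0.01 against 0.00 over all genes. At an unadjusted p below 0.05 there were 3, ATG22, ATG27 and ATG34, against 11% of all genes, and DESeq2 and limma each called 0. ATG22 stood at 115 and 110.0 CPM in cho2 against 88.1 and 92.3 CPM in WT (0.32 ± 0.13), ATG27 at 172 and 172 CPM in cho2 against 141 and 137 CPM in WT (0.31 ± 0.12), and ATG34 at 517 and 512 CPM in cho2 against 361 and 464 CPM in WT (0.32 ± 0.14). None of the 3 passed the adjusted threshold. ATG4 (107 and 116 CPM in cho2 against 95.3 and 113 CPM in WT) and ATG20 (152 and 162 CPM in cho2 against 149 and 189.5 CPM in WT) overlapped between the groups. ATG19 (385 and 406 CPM in cho2 against 408 and 478 CPM in WT) and ATG23 (105 and 96.9 CPM in cho2 against 108 and 107 CPM in WT) lay slightly lower in cho2, without a call. ATG8 (-0.09 ± 0.16), whose protein is joined to the lipid that Cho2 uses, was at 221 and 228 CPM in cho2 against 207 and 269.5 CPM in WT, and the groups overlapped.

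In cells without SET2, CHO2 loss was read from cho2set2 against set2, where 3 of 31 rose and 1 fell and where 4.01% of all genes rose and 3.88% fell (7.89% in either direction). ATG1 stood at 66.9 and 78.6 CPM in cho2set2 against 143 and 123 CPM in set2, the largest log2 change of the 31 genes in this comparison (-0.87 ± 0.13, adjusted p = 0.000495). When cho2set2 replicate 1 was left out it was at -0.76 ± 0.15 (adjusted p = 0.0134), and the call held under all 9 alternatives. ATG23 stood at 109 and 91.1 CPM in cho2set2 against 59.2 and 71.6 CPM in set2 (0.62 ± 0.14, adjusted p = 0.0112), ATG34 at 408 and 379 CPM in cho2set2 against 263 and 267 CPM in set2 (0.57 ± 0.14, adjusted p = 0.0177), and ATG17 rose by 0.54 ± 0.15 (adjusted p = 0.0424). Once cho2set2 replicate 1 was dropped, ATG23 (0.48 ± 0.16), ATG34 (0.52 ± 0.17) and ATG17 (0.40 ± 0.18) were not called, and ATG1 was the 1 call left. Without set2 replicate 1 the call count was also 1, and DESeq2 called 7.

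ATG1 was also the 1 ATG gene called in the interaction of CHO2 and SET2 loss, where 0.365% of all genes were higher and 0.547% lower (0.912% in either direction). It stood at 66.9 and 78.6 CPM in cho2set2 against 93.5 and 94.2 CPM in cho2 (-0.37 ± 0.13, adjusted p = 0.0616), and at 143 and 123 CPM in set2 against 103 and 92.6 CPM in WT (0.44 ± 0.13). In cho2 cells both libraries without SET2 lay lower, and in CHO2 cells both lay higher. The difference between the 2 changes was -0.81 ± 0.18 (adjusted p = 0.0467). It ran from -0.93 to -0.70 over 13 alternatives, with the highest adjusted p at 0.333, and 7 of them lost the call. Those 7 include the fit that leaves out the library labelled cho2set2 replicate 1 (-0.70 ± 0.19, adjusted p = 0.259) and the fits that leave out WT replicate 2, set2 replicate 1 or either cho2 library.

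**Figure D5:**
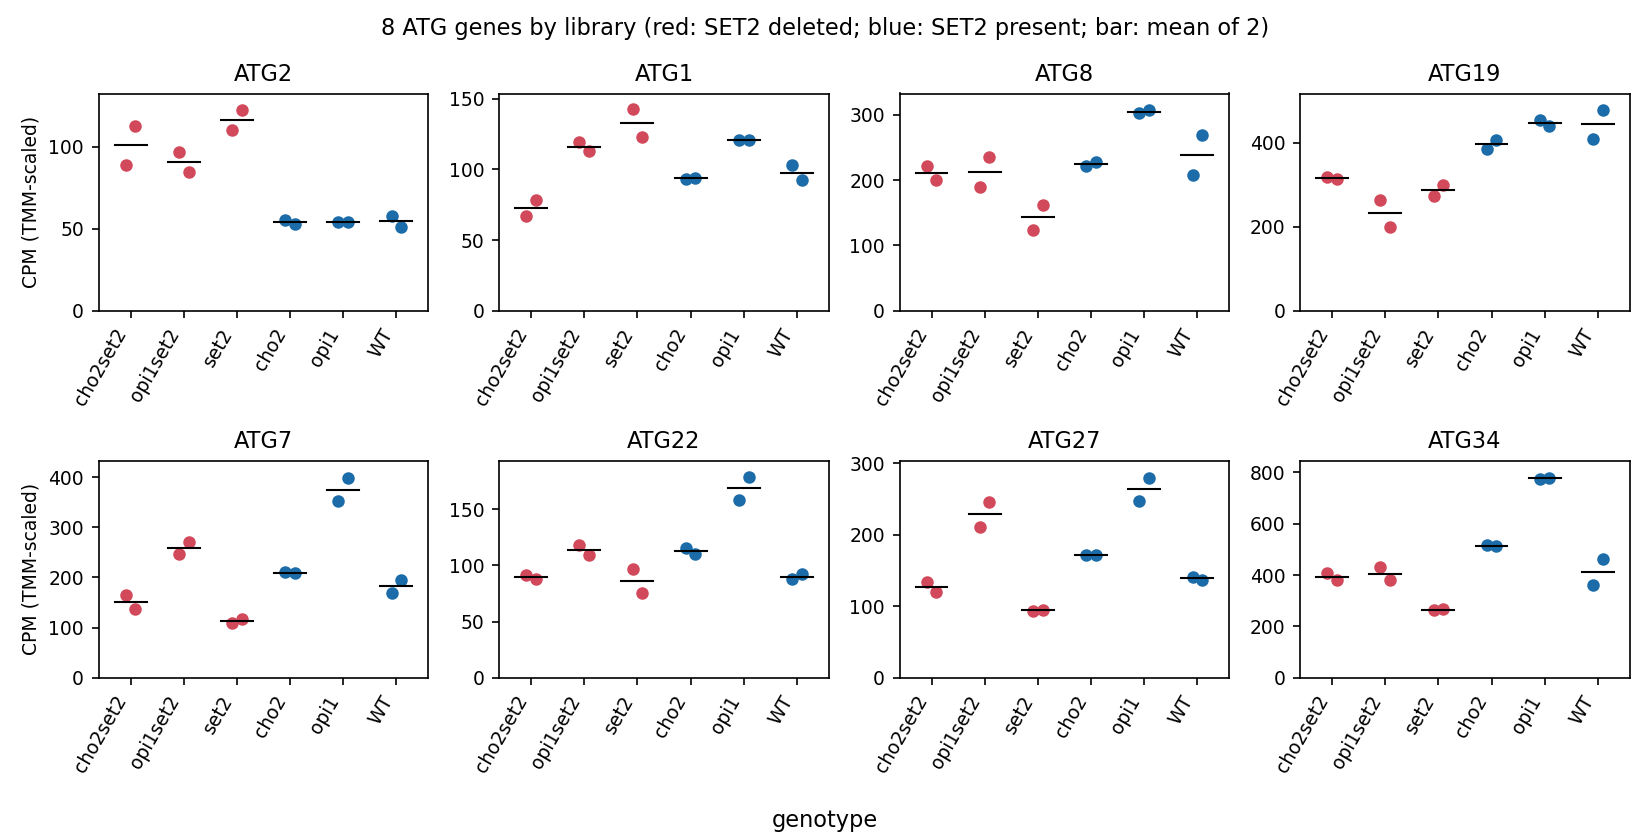
CPM (vertical axes, TMM-scaled, from 0) of 8 ATG genes in each library by genotype (horizontal axes); red points lack SET2, blue points have it, and bars are means of 2 libraries. ATG2 is higher in every red point than in every blue one, ATG1 is lowest in cho2set2 at 66.9 and 78.6 CPM, and ATG7, ATG22, ATG27 and ATG34 peak in opi1.

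ATG5, ATG10, ATG11, ATG13, ATG16, ATG18 and ATG32 were called in none of the 9 tests (7 of 31, 22.6%), against 34.2% of all genes. ATG11 ranged from -0.09 to 0.12 over the 9 tests. ATG18, the partner of Atg2 that binds phosphatidylinositol phosphate, was at -0.53 ± 0.20 in opi1 against WT and at -0.50 ± 0.20 in opi1set2 against set2, without a call in either. It stood at 38.5 and 24.4 CPM in the opi1 libraries, against 46.0 and 44.7 CPM in WT.

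The other genes of the pathway, from lists made for these data, did not all move with the ATG genes. Of 14 autophagy partners without an ATG name, 4 rose and 4 fell in set2 against WT, where 18.5% of all genes rose and 15.9% fell. Those that rose were CCZ1 (1.44 ± 0.19), part of the exchange factor for the Rab protein Ypt7, TRS85 (1.00 ± 0.13), a subunit of the TRAPP tethering complex, and VPS15 (0.89 ± 0.14) and VPS34 (0.73 ± 0.14), the regulatory and catalytic subunits of the phosphatidylinositol kinase whose subunits ATG14 and ATG38 fell. The same 4 rose in cho2set2 against cho2, where 0 of the 14 fell, with or without cho2set2 replicate 1 (11.3% of all genes rose). They rose in opi1set2 against opi1 as well, where MON1 rose too and 4 fell, beside 23.5% of all genes higher and 20.8% lower. YPT7 (-0.50 ± 0.13), YPT1 (-0.47 ± 0.12), SNX4 (-0.38 ± 0.12) and VAC8 (-0.37 ± 0.12) fell in set2. In opi1 against WT, SNX4 (0.45 ± 0.12) and YKT6 (0.43 ± 0.12) rose and 0 fell, where 8.94% of all genes rose.

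Of 9 cargo and vacuolar hydrolase or transporter genes, 3 fell and 1 rose in set2 against WT, 3 fell and 0 rose in cho2set2 against cho2, and 7 fell and 0 rose in opi1set2 against opi1. Over all genes, 15.9%, 5.58% and 20.8% fell in those 3 comparisons, and without cho2set2 replicate 1 the 3 calls in cho2set2 against cho2 were lost (adjusted p from 0.0759 to 0.153). AMS1, the alpha-mannosidase that Atg19 and Atg34 carry, stood at 510.2 and 386 CPM in opi1set2 against 1034 and 1005 CPM in opi1 (-1.19 ± 0.16), and at 523 and 489.7 CPM in set2 against 628 and 837 CPM in WT (-0.53 ± 0.16). PRB1, the vacuolar protease B, fell in opi1set2 against opi1 (-1.14 ± 0.20) and was not called in set2 against WT (-0.22 ± 0.20). In opi1 against WT, AMS1 (0.48 ± 0.16), LAP3 (0.63 ± 0.13), PRC1 (0.47 ± 0.14) and AVT4 (0.89 ± 0.12) rose and 0 of the 9 fell, where 8.94% of all genes rose.

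Among 18 upstream signalling genes, 6 rose and 1, GTR1, fell (-0.67 ± 0.12) in set2 against WT, where 18.5% of all genes rose and 15.9% fell. TOR2 rose by 1.46 ± 0.13, RIM15, a kinase that promotes entry into quiescence, by 0.96 ± 0.13, NPR3 and IML1, subunits of the complex that restrains TORC1, by 0.91 ± 0.13 and 0.74 ± 0.14, KOG1, a subunit of TORC1, by 0.84 ± 0.16, and TOR1 by 0.44 ± 0.14. The 6 that rose, like VPS15 and VPS34 above, have 2500 exonic bases or more. Among all genes of that length, 48% rose and 1.65% fell in set2 against WT, and the part of length was not tested. In opi1 against WT and in cho2 against WT, 0 of the 18 were called, beside 17.7% and 1.72% of all genes. Of 13 transcriptional regulators, INO2 and INO4 rose in opi1 against WT and 0 fell, where 8.94% of all genes rose and 8.77% fell. INO2 stood at 63.1 and 61.4 CPM in opi1 against 20.4 and 20.9 CPM in WT (1.59 ± 0.22), and INO4 at 119.9 and 128 CPM in opi1 against 58.2 and 68.5 CPM in WT (0.97 ± 0.15). In set2 against WT, 2 of the 13 rose and 3 fell, beside 18.5% and 15.9% of all genes. INO2, at 41.1 and 36.1 CPM in set2 against 20.4 and 20.9 CPM in WT (0.90 ± 0.22), and GLN3 (0.81 ± 0.17) rose. INO4, at 40.8 and 42.9 CPM in set2 against 58.2 and 68.5 CPM in WT (-0.60 ± 0.16), MSN4 (-0.64 ± 0.14) and PHO23 (-0.48 ± 0.14) fell, so the partners INO2 and INO4 moved in opposite directions. UME6 (-0.05 ± 0.21) and RPH1 (0.04 ± 0.17), which like PHO23 encode repressors of ATG genes in yeast, were not called in set2 against WT. In opi1set2 against opi1, UME6, RPH1, PHO23 and MSN2 fell and GCN4 rose, beside 20.8% of all genes lower and 23.5% higher. In cho2set2 against cho2, MSN4 fell (-0.43) and 0 rose, beside 5.58% lower and 11.3% higher. That call was lost without cho2set2 replicate 1 (-0.47).

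A further 6 genes carry an ATG name in RefSeq but not in the symbol column of the deposited table, and are outside the 31. In set2 against WT 4 of them fell and 0 rose, beside 15.9% and 18.5% of all genes, and in opi1 against WT 4 rose and 1 fell, beside 8.94% and 8.77%. ATG39, a receptor for the nuclear envelope and endoplasmic reticulum, stood at 641 and 669 CPM in opi1 against 295 and 400.3 CPM in WT (0.91 ± 0.16), and at 351 and 276 CPM in opi1set2 against 641 and 669 CPM in opi1 (-1.06 ± 0.16). ATG41 went the other way with lipid gene loss. It fell in cho2 against WT (-1.60 ± 0.18), and stood at 92.0 and 141 CPM in cho2set2 against 548 and 537 CPM in set2 (-2.22 ± 0.19, and -1.94 ± 0.19 without cho2set2 replicate 1). It also fell in opi1 against WT (-1.01 ± 0.18) and in opi1set2 against set2 (-1.25 ± 0.18). With SET2 loss it was not called in any of the 3 backgrounds.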

How the data were processed

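The authors deposited 1 table of whole-number counts per gene and library, not normalised, beside FPKM per kilobase of exonic gene size and total count, which a recomputation from the counts matched within 0.005. Per the submitters' processing notes, cutadapt 1.9.1, HISAT2 2.0.1 and HTSeq 0.6.1 were used with build sacCer3; the strand setting is not given in the sources used here. Counts were tested with edgeR 4.0.16 (quasi-likelihood, 2-sided, 1 mean per genotype, 12 libraries, 6 residual degrees of freedom, TMM factors 0.897 to 1.08, common biological coefficient of variation 0.12), with Benjamini-Hochberg adjustment over all genes tested. The SE of a log2 change is its size over the square root of F. CPM was computed from the counts. The script was tested on simulated data: the share of false calls among the calls lay somewhat above the nominal rate of the adjusted p, so calls near the threshold are less firm than it states. That test was revised after its first outcome. No test over a gene list was made. With 2 libraries against 2, an exact permutation test of 1 gene cannot go below 0.333, so groups that lie apart are a description only. The share of all genes whose groups lie apart was not counted.

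The ATG genes, the role groups, the lists of other genes and the length classes were chosen with earlier results of these data known. Values in every library are given for the 12 ATG genes with the smallest adjusted p over the 7 comparisons and 2 interaction terms and for ATG1 and ATG8. All genes called in any of them and ATG1, ATG8, ATG9, ATG11, ATG13, ATG14, ATG17, ATG19 and ATG32 are named. Alternatives were DESeq2 1.42.0, median-of-ratios scaling, no filter on low values, limma 3.58.1 on log2(FPKM + 1) without TMM, a replicate block, and each library left out in turn. Raw reads were not used. R 4.3.3 ran the tests; Python 3.11.15 (pandas 2.3.3, matplotlib 3.10.9) ran the motif search and the figures.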

Additional observations from a re-analysis of the deposited data

Results flagged for a closer look

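The log2 change of ATG1 with SET2 loss was below 0 in cells without CHO2, where it was not itself called, and above 0 in cells with CHO2. The test of that difference passed in the main fit (edgeR adjusted p = 0.0467). The log2 change in cho2set2 against cho2 minus that in set2 against WT was -0.81 (SE 0.18). That call was lost in 7 of 13 alternatives, limma and the replicate block among them. The library labelled cho2set2 replicate 1, which held 50 SET2 counts, is 1 of the 2 cho2set2 libraries; its part in the result was not tested beyond leaving it out (-0.70, adjusted p = 0.259).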

How the results depend on the processing

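Of the 60 called log2 changes of ATG genes, DESeq2, median-of-ratios scaling and the fit without a filter each kept 60, the replicate block kept 53 and limma on log2(FPKM + 1) kept 33; 0 reversed under any alternative run. The cause of the lost calls was not tested. Counts of called ATG genes that moved by over 1.5 times were, by limma, 2 in cho2set2 against cho2, 8 in opi1set2 against opi1, 1 in cho2set2 against set2, 4 in opi1set2 against set2, 0 in the interaction of CHO2 and SET2 loss and 1 lower in all 3 SET2 comparisons. By DESeq2 they were 7 in cho2set2 against set2 and 2 in the interaction of OPI1 and SET2 loss.

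With 1 library left out, the counts ran from 10 to 16 in set2 against WT, 0 to 0 in cho2 against WT, 4 to 5 in opi1 against WT, 1 to 5 in cho2set2 against cho2, 12 to 20 in opi1set2 against opi1, 1 to 4 in cho2set2 against set2, 3 to 15 in opi1set2 against set2, 0 to 1 in the CHO2 interaction and 0 to 4 in the OPI1 interaction. They ran from 0 to 6 for genes lower in all 3 SET2 comparisons, 1 to 1 for genes higher in all 3 and 3 to 4 for genes higher in both OPI1 comparisons. These 3 shared counts and the other gene lists without cho2set2 replicate 1 were chosen after the data were seen. So were fits of other comparisons that drop the library labelled cho2set2 replicate 1. That library is not in opi1set2 against opi1, where dropping it gave the highest count. Leaving out any library of that comparison lowered the count.

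Replicate numbers showed no pairing common to all genotypes. For 15 genotype pairs, replicate differences correlated at -0.329 to 0.329 (median 0.008), with 3 above 0.1. Pairing or a batch among some of the genotypes was not tested. With the replicate block, 0 ATG genes were called in the interaction of CHO2 and SET2 loss. Without TMM, the median of all genes moved to -0.14 in opi1 against WT, 0.19 in opi1set2 against opi1 and 0.15 in the OPI1 interaction.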
